A study of Mus musculus with 3 samples.

Results

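Open chromatin inside protein-coding genes, 1 to 5 kb from their ends, was examined in the uterus of pregnant mice by FAIRE-seq, in which DNA not crosslinked to protein is recovered from sheared chromatin and sequenced. Of 12413 peaks, 1232 (9.93%, 95% Wilson interval 9.41 to 10.5) had their centre inside a protein-coding gene, more than 1 kb from every annotated end of any gene and 5 kb or less from the nearest end of a protein-coding gene containing it. They are called intragenic peaks here. The animals were untreated wild-type C57BL/6J females, 6 to 10 weeks old, mated with fertile males, and whole uteri of 3 of them were taken on gestation day 4. All 3 samples form 1 group. Only 1 peak list was analysed and it does not say which mouse a row came from, so the values have no spread between animals and nothing could be tested between conditions. A FAIRE peak does not measure expression, so the tissue label was not checked against the expression of its markers. Whole uterus mixes epithelium, glands, stroma, muscle, vessels and immune cells, and fewer cells of a type cannot be told apart from less open chromatin per cell.

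Promoters are the stretches around transcription starts where RNA polymerase is loaded, and in active genes they are usually depleted of nucleosomes. Many mammalian genes have several starts, so that a promoter of the same gene can lie well inside its longest annotated form. Most promoters of widely expressed genes lie in CpG islands, stretches rich in G, C and the dinucleotide CpG that tend to stay unmethylated and open. Enhancers, which bind transcription factors away from starts, also lie within genes, often in the first introns.

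Intragenic peaks gathered at transcription starts that lie inside the annotated gene. RefSeq (GRCm38.p6) lists at least 1 start, with its strand, for 17274 of the 21523 protein-coding genes used, and lists none on 1 of the chromosomes, which holds 37 of the intragenic peaks. Of the other 1195, 606 (50.7%, 95% Wilson interval 47.9 to 53.5) had their centre within 1 kb of a listed start, and for 599 of these a start of the gene containing the peak lay that close. In 211 of the 1195 the gene containing the peak has no listed start, so closeness to a start of that gene could not be scored. All but 1 of these 211 count as away from a listed start here and below. Bases within 1 kb of a listed start made up 2.96% of all bases that meet the distance rule on those chromosomes, so the share of peaks there was 17.1 times the share of bases. The 300 bases around a start (250 before it and 50 after it) were overlapped by 437 of the peaks. Deeper peaks gathered at listed starts too: of 949 peaks more than 5 kb inside genes on those chromosomes, 422 (44.5%) lay within 1 kb of one. Per Mb there were 171 intragenic peaks within 1 kb of a listed start and 5.07 away from one, and for the deeper peaks 104 and 0.651.

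Sequences before such starts are shown for 6 genes whose peak covers most or all of the stretch, followed by 3 starts that meet the same distance rule and have no peak within 1 kb. Each is the 250 bases upstream of a listed start, 5′ to 3′ on the strand of the gene, from RefSeq (GRCm38.p6), and capitals mark matches to the 12 motifs described further on. Map4 encodes a microtubule-associated protein, Sav1 a scaffold of the Hippo pathway, Ago3 an Argonaute protein of small RNA silencing, and Axin2 a feedback inhibitor of Wnt signalling. Klf15 encodes a Krüppel-like factor and Gpx4 a glutathione peroxidase that reduces lipid peroxides. Foxa2 encodes a transcription factor of the glands, Igf1 insulin-like growth factor 1 and Spp1 the adhesion protein osteopontin.
Map4 (chr9:109931524-109931773, + strand): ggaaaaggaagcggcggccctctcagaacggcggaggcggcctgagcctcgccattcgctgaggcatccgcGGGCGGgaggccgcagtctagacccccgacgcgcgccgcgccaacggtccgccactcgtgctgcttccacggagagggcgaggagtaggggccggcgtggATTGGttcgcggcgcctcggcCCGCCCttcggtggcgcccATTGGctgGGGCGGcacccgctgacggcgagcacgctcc
Sav1 (chr12:69987003-69987252, - strand): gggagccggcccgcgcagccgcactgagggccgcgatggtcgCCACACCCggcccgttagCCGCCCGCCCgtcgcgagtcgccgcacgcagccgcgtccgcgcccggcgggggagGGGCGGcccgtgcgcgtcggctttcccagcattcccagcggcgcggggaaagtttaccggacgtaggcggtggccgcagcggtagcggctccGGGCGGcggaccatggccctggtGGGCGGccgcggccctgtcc
Ago3 (chr4:126429543-126429792, - strand): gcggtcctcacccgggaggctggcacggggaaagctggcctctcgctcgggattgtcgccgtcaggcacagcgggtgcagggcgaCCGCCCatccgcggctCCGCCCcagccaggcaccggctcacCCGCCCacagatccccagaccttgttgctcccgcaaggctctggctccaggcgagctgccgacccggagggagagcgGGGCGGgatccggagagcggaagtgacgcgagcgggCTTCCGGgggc
Axin2 (chr11:108920099-108920348, + strand): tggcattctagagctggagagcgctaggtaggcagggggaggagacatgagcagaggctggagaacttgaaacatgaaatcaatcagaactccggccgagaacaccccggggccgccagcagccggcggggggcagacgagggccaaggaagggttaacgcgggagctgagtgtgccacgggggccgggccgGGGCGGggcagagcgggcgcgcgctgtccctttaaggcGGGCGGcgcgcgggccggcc
Klf15 (chr6:90462326-90462575, + strand): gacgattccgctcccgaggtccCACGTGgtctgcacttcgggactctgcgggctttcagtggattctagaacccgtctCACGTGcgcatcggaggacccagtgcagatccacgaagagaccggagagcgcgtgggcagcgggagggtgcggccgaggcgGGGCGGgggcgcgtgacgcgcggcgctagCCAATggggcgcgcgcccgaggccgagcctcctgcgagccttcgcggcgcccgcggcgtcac
Gpx4 (chr10:80053409-80053658, + strand): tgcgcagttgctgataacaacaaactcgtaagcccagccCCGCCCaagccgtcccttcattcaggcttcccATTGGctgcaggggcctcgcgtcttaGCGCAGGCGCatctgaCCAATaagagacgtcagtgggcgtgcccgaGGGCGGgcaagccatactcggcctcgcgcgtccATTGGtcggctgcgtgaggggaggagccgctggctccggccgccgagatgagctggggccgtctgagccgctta
Foxa2 (chr2:148045949-148046198, - strand): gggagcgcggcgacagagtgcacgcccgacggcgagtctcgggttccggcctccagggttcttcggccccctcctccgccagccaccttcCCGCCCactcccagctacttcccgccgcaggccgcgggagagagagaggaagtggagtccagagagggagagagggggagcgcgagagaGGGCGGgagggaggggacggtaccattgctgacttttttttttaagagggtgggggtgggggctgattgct
Igf1 (chr10:87860861-87861110, + strand): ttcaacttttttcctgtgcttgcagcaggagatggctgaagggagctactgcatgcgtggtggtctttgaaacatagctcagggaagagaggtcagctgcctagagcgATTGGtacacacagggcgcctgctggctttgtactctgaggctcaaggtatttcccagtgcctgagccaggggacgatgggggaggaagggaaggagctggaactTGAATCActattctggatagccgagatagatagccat
Spp1 (chr5:104435942-104436191, + strand): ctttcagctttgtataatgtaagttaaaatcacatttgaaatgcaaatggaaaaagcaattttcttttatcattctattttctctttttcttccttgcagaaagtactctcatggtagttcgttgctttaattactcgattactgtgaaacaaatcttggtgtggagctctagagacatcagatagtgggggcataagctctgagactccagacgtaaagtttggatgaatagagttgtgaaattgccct
The first 6 stretches held 24 to 43 CpG dinucleotides each, and G and C made up 65.2% (Gpx4) to 79.2% (Sav1) of their bases. The Igf1 stretch held 5 CpG and the Spp1 stretch 3, with 52.8% and 35.6% G and C. Foxa2 differed from these: its stretch had 20 CpG and 67.2% G and C, yet no peak lay within 1 kb of the start.

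The same contrast was seen over larger sets of listed starts. The CpG ratio is the number of CpG observed over the number the base composition would give, and it was computed for the 300-base window of each start. Of 492 windows overlapped by an intragenic peak, 453 (92.1%) had a ratio above 0.6, with a median of 0.828 (interquartile range 0.721 to 0.950). Of 921 windows that meet the distance rule and have no peak within 1 kb, 158 (17.2%) did, with a median of 0.274 (0.143 to 0.481). Only this second set was limited to starts that meet the rule. Windows at the ends of protein-coding genes gave 89.8% of 3495 with a peak and 15.6% of 6360 without, against 36.0% of all 32585 windows in the table. G and C made up a median of 66.0% of the bases in windows under an intragenic peak and 51.7% in those without. Base composition can also affect how DNA is recovered, amplified and sequenced, and its part in these shares was not tested.

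**Figure D1:**
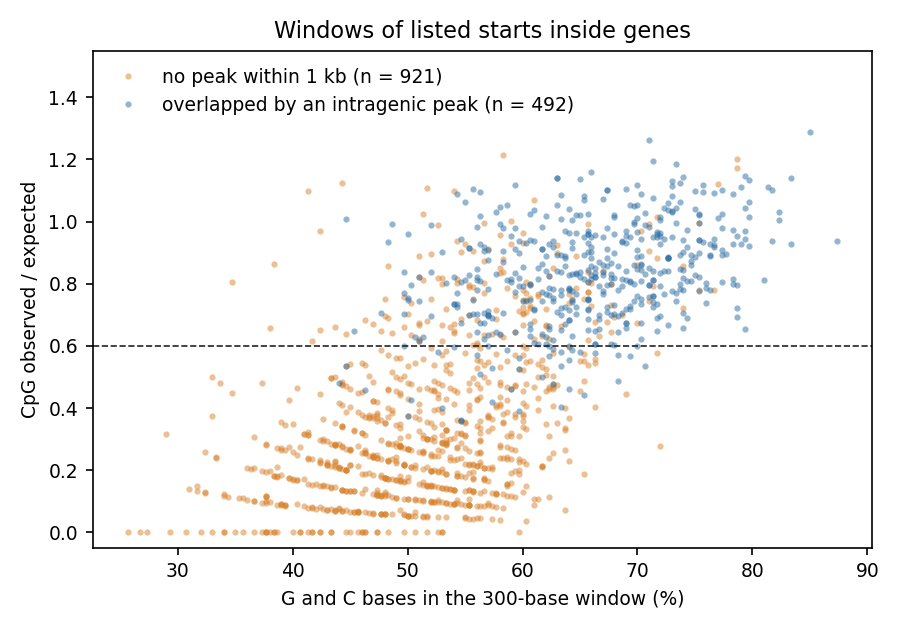
Base composition of listed starts inside genes, where windows under a peak, unlike those without one, need not meet the distance rule. Each point is a 300-base window, with its percentage of G and C on the horizontal axis and its CpG observed over expected ratio on the vertical axis; 453 of 492 windows under an intragenic peak (blue) lie above the dashed line at 0.6, compared with 158 of 921 windows with no peak within 1 kb (orange).

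Short motifs were counted in the same windows on both strands. The GC box (GGGCGG), bound by Sp and Krüppel-like factors, was in 75.8% of the windows under an intragenic peak, 24.6% of those without a peak and 35.9% of all windows. The ETS motif (CCGGAAG) was in 17.7%, 5.86% and 8.92%, the E-box (CACGTG) in 12.6%, 3.69% and 7.20%, and the NRF1 motif (GCGCA, any base, then GCGC) in 9.55%, 1.19% and 4.62%. All 4 of these motifs hold a CpG themselves, and the part of the CpG content in their shares was not tested. The TATA box (TATAAA) went the other way, at 5.28% under intragenic peaks, 14.2% without a peak and 13.7% of all windows, as did the AP-1 motif (TGANTCA) at 3.05%, 8.69% and 7.85%, and the GATA motif (AGATAA) at 5.69%, 14.1% and 11.2%. Shares for the CCAAT box (CCAAT) were 31.3%, 36.3% and 37.6%, and for the cyclic AMP response element (TGACGTCA) 2.44%, 1.41% and 1.80%. The YY1 motif (AAGATGG) was in 6.71%, 5.10% and 6.37%, the TEAD motif (ACATTCC) in 2.44%, 4.45% and 3.87%, and a Krüppel-like CACCC motif (CCACACCC) in 1.42%, 4.45% and 3.57%. In windows under a peak at protein-coding gene ends, the GC box, ETS, E-box and NRF1 motifs were in 77.0%, 20.4%, 11.9% and 13.9%. There the TATA box, AP-1 and GATA motifs were in 5.49%, 3.52% and 3.78%, and the CCAAT box and CACCC motif in 39.8% and 3.66%. A match is only a run of letters and does not show that a factor was bound. In the stretches printed above, Sav1 had 5 GC boxes, Ago3 had 4 with 1 ETS motif, and Klf15 had 2 E-boxes, while Spp1 had no match to any of the 12 motifs.

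Most intragenic peaks at a listed start had their centre downstream of it. Along the direction of transcription, the 606 centres lay at a median of 107 bp past the start (interquartile range −2.00 to 277), with 447 of them downstream, and 403 were within 250 bp on either side. Summits were closer, at a median of 62.5 bp past the start. Of the starts nearest to these peaks, 513 were themselves more than 1 kb from every gene end and 5 kb or less inside a protein-coding gene. The rule leaves out centres within 1 kb of a gene end. For a start within 1 kb of its gene's 5′ end, only downstream centres can therefore count. A start 1 to 2 kb inside that end loses part of its upstream side as well. Of the 813 intragenic peaks nearest a 5′ end, 476 had their centre 1 to 2 kb inside it. The part of this limit in the offsets was not tested.

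**Figure D2:**
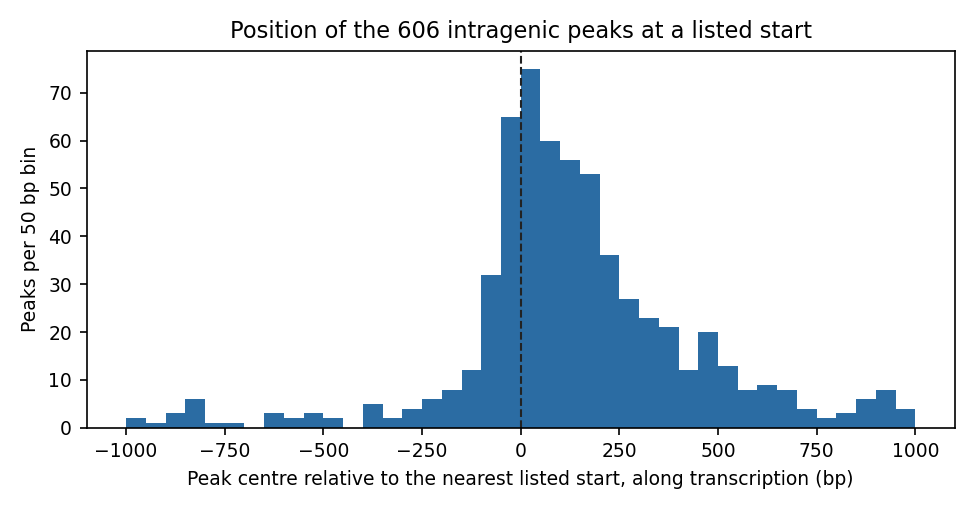
Position of intragenic peaks at starts. The horizontal axis is the distance in bp from the nearest listed start to the peak centre, positive in the direction of transcription, and bars count peaks per 50 bp; of the 606 peaks, 280 lie from 0 to 250 bp past the start and 123 in the 250 bp before it.

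For 457 of the 599 peaks at a start of their host gene (76.3%), the nearest such start was the outermost that RefSeq lists for the gene, and 381 were in a gene with 1 listed start only. The host gene had no listed start within 1 kb of its annotated 5′ end for 426 of the 606 (70.3%), so there the gene's span reached beyond its listed starts, and it had such a start for 179 (29.5%). Among 851 genes with a listed start at this depth and none at the 5′ end, 356 had a peak only at the inner start, 59 only at the 5′ end, 55 at both and 381 at neither. Among 459 genes with listed starts at both places, 64 had a peak only at the inner start, 122 only at the end, 70 at both and 203 at neither. These counts and the shares that follow take any peak of the list, intragenic or not, within 1 kb of each place. Where the inner start is 1 to 2 kb from the 5′ end these stretches overlap, so 1 peak can count at both. The inner start had a peak in 48.3% of the former genes and 29.2% of the latter, and the 5′ end in 13.4% and 41.8%. In all, 637 of 1558 listed starts meeting the distance rule had a peak within 1 kb (40.9%, 95% Wilson interval 38.5 to 43.3). Protein-coding starts that are a gene end had one in 38.9% of 10438 cases, and starts more than 5 kb inside a gene in 21.1% of 2245.

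Stronger intragenic peaks lay more often at listed starts, although the share among the 20 strongest was near that of all intragenic peaks. Of 81 intragenic peaks of 10-fold or more, 56 lay at a listed start, 22 away from one and 3 on the chromosome without listed starts. Of the 22, 12 were in genes with no listed start and 10 on the 5′ side of genes with one. In the 6207 peaks of highest fold, 67.5% of the intragenic peaks on chromosomes with listed starts lay at one. Of the 20 with the highest fold enrichment over local background (11.7 to 17.9, the authors' values), 11 lay at a listed start, beside 50.7% over all, and 4 were in genes with no listed start. None had the 3′ end as its nearest end, and in 19 of the 20 the host gene had no peak within 1 kb of either end, Lig4 being the exception, while 28.6% of all intragenic peaks were in a gene with such a peak. Gnb1l, a gene of a WD-repeat protein, had a peak of 13.7-fold with a pileup of 145 (chromosome 16, 18498591 to 18499034), 99.5 bp from a listed start and 1426.5 bp inside the gene. Map4 reached 13.6-fold with a pileup of 214 (chromosome 9, 109931420 to 109932065), 31.5 bp from the start shown above. Sav1 reached 13.1-fold (chromosome 12, 69986701 to 69987411), 54 bp from its start. These 3 genes had no peak at their annotated ends.

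Other peaks of the top 20 at a listed start lay in Osbpl2, a gene of an oxysterol-binding protein family (12.9-fold), Ptpn1, a protein tyrosine phosphatase (12.2-fold), and Cetn3, a centrin (12.0-fold). Nudt9 (11.9-fold), Zfp451, a zinc finger gene (11.9-fold), Lig4, the DNA ligase of end joining (11.8-fold), Ago3 (11.8-fold) and Nbeal1 (11.7-fold) completed them. Their centres were 25 bp (Nbeal1) to 366.5 bp (Cetn3) from the start. In Lig4 another peak lay 1526.5 bp away, at the 5′ end of the gene.

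The highest intragenic peaks away from listed starts were fewer and more varied. Aida had the strongest of all intragenic peaks, at 17.9-fold with a pileup of 336 (chromosome 1, 183299092 to 183299598), 2285 bp inside its 5′ end. The local background there, computed from fold and pileup, was 17.8, against a median of 8.88 over intragenic peaks. Cldn34d, a claudin family gene on chromosome X, had 13.8-fold 4014 bp inside (76598632 to 76599188). Angptl6, an angiopoietin-like gene, had 13.5-fold, 1420.5 bp from its listed start. Tiam1, an activator of the GTPase Rac, had 12.5-fold 1655 bp inside its 5′ end and 169246 bp from its own listed start, and Fbxl22, an F-box gene, had 12.1-fold. Osgin2 (15.3-fold), Zfp41 (12.6-fold) and Gipc1, a PDZ domain gene (11.9-fold), have no listed start in the table, so their side of the gene is not known here.

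The number of peaks also differed by which end of the gene was nearest. Strand was known for 984 intragenic peaks, and 813 of them (82.6%, 95% Wilson interval 80.1 to 84.9) were nearest the 5′ end, compared with 59.3% of 796 peaks more than 5 kb inside genes. The share was 96.5% of 605 intragenic peaks at a listed start and 60.4% of 379 away from one. The stretches meeting the rule were about equally long on both sides, 49.0 Mb and 49.2 Mb, so the density was 16.6 peaks per Mb on the 5′ side and 3.48 on the 3′ side. On the 5′ side density fell with distance, from 35.3 per Mb at 1 to 2 kb to 12.9, 8.55 and 6.55 in the next 3 kb. On the 3′ side it was 5.76, 2.90, 3.05 and 1.73 per Mb. Without the 1 kb around listed starts, the 5′ side held 4.99 per Mb and the 3′ side 3.07, and that gap lay mostly in the first kb, with 11.5 and 5.29 per Mb, whereas at 3 to 4 kb the values were 2.19 and 2.39. Interiors beyond 5 kb held 1.17 peaks per Mb.

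**Figure D3:**
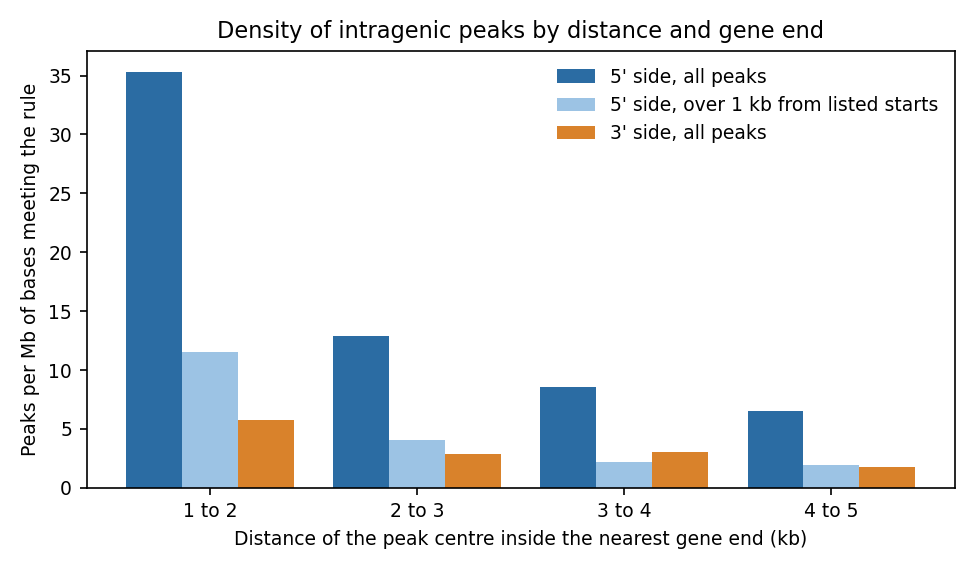
Density of intragenic peaks. Bars give peaks per Mb of the bases that meet the distance rule, by distance of the peak centre inside the nearest gene end in kb, for the 5′ side (dark blue), the 5′ side without 1 kb around listed starts (light blue) and the 3′ side (orange); the 5′ side falls from 35.3 to 6.55 per Mb and the 3′ side from 5.76 to 1.73.

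Median fold enrichment differed between the same groups of peaks. Intragenic peaks had a median of 5.10 (interquartile range 4.00 to 6.92) and ran from 2.44 to 17.9, with a median pileup of 50 and a median width of 400 bp. Peaks at protein-coding gene ends had a median of 6.08, those more than 5 kb inside genes 5.25, and those between genes 4.79. At a listed start the intragenic median was 5.87 (4.37 to 7.80) and away from one 4.50 (3.76 to 5.82). The same gap was seen more than 5 kb inside genes, with 5.97 at a listed start and 4.70 away. Nearest the 5′ end the intragenic median was 5.33, and nearest the 3′ end 4.32. Away from listed starts these were 4.39 and 4.26, against 4.76 over the 211 peaks in genes with no listed start. Peaks of 10-fold or more numbered 81, of which 56 lay at a listed start, 22 away from one (12 of them in genes with no listed start) and 3 on chromosome 18. The 150 peaks on the 3′ side away from listed starts reached 9.99-fold at most, at Gpr153. These are values of single peaks in 1 list, which are not replicates, so no test was made, and the interquartile ranges overlap. The chromosome without listed starts is 18.

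**Figure D4:**
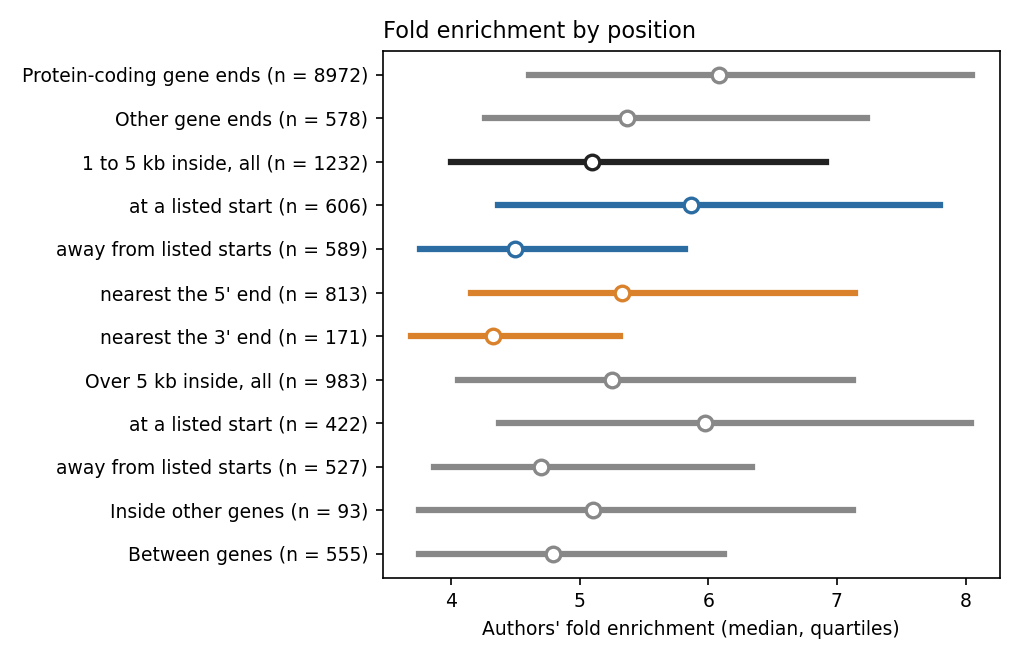
Fold enrichment by position. Circles are medians and bars interquartile ranges of the authors' fold enrichment, with the number of peaks in brackets; intragenic peaks at a listed start (median 5.87) sit near protein-coding gene ends (6.08), and those away from listed starts (4.50) or nearest the 3′ end (4.32) sit below the median between genes (4.79).

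Peaks next to the distance limits had values on both sides as follows. Just inside the inner limit lay peaks in Pde5a (1001 bp, 7.19-fold), Cpt1a (1003 bp, 5.53-fold) and Zfp36l2 (1003.5 bp, 2.86-fold), and just outside it peaks in Grm6 (1000 bp, 4.75-fold), Ctf1 (1000 bp, 8.13-fold) and Ccna2 (999 bp, 10.9-fold). At the outer limit, Mad2l2 (4990 bp, 4.50-fold) and Podnl1 (4982 bp, 3.37-fold) were just inside. Slc29a2 (5009.5 bp, 5.08-fold), Bhlhb9 (5022 bp, 4.37-fold) and Srsf11 (5026.5 bp, 6.79-fold) were just outside.

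A smaller share of genes with an intragenic peak than of other genes had a peak at an end. The 1232 peaks lay in 1137 host genes, which are 5.98% of the 19012 protein-coding genes with bases that meet the rule. A peak within 1 kb of either end was found in 340 hosts (29.9%, 95% Wilson interval 27.3 to 32.6) and in 8728 of the 17875 such genes without an intragenic peak (48.8%, 48.1 to 49.6). In the 6207 peaks of highest fold both shares were lower, 4.25% of 471 hosts and 28.9% of 18541 other genes, and in the 6207 of highest −log10 q they were 7.38% of 488 and 28.5% of 18524. At the 5′ end alone, over all peaks, the shares were 27.1% of 904 hosts with known strand and 48.1% of 14272 others, and at the 3′ end 2.43% and 2.24%. Hosts with an intragenic peak at a listed start of their own had a 5′ end peak in 100 of 564 cases (17.7%), and other hosts in 145 of 340 (42.6%). A gene whose only peak is at an inner start counts among the former, and these intervals cover counting error over genes, which are not replicates.

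On the 5′ side, more of the peaks away from listed starts than of those at one had another peak nearby. Of the 229 peaks away from starts, 103 (45.0%) had another peak centre within 2 kb and 91 (39.7%) were in a gene with a peak at its 5′ end. At listed starts the counts were 150 of 584 (25.7%) and 94 (16.1%). On the 3′ side away from starts, 22 of 150 (14.7%) had another peak within 2 kb, 57 (38.0%) were in a gene with a 5′ end peak and 1 in a gene with a 3′ end peak. Over the whole list, 17.9% of peaks had another within 2 kb.

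Some host genes held several intragenic peaks: 86 held 2, 3 held 3 and 1 held 4. In 60 of these 90 genes the closest pair of centres was 1 kb or less apart. Zbtb7a, a zinc finger repressor gene, had 4 peaks of 3.35-fold to 4.49-fold, of which 3 lay within 2756.5 bp of its 5′ end and the other 3931.5 bp from its 3′ end. N4bp2 had 3 peaks (3.56-fold to 6.01-fold) and Bbc3, the p53 target Puma, 3 (3.34-fold to 4.26-fold). Pairs were found in Gipc1 (11.9-fold and 3.37-fold), Tbc1d5 (9.21-fold and 5.75-fold), Axin2 (9.50-fold and 5.45-fold), Lrp3 (10.9-fold and 3.89-fold), Gpx4 (8.48-fold and 5.56-fold) and Mef2a, a muscle transcription factor gene (7.17-fold and 6.44-fold). None of these genes had a peak at an annotated end.

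Gene groups of the uterus were then examined for intragenic peaks, each beside the 5.98% of all protein-coding genes with bases meeting the rule. Because the lists were chosen with earlier results of these data known, their counts are a description only. Progesterone readies the uterus for implantation through its receptor, and of 28 progesterone response genes 9 (32.1%) held an intragenic peak, with a median of 5.12-fold over 11 peaks. Pgr, the receptor itself, had its only peak inside the gene here, at 5.05-fold with a pileup of 50 (chromosome 9, 8901604 to 8902147), 2042.5 bp past its listed start. Nr2f2, a stromal nuclear receptor gene, had 10.4-fold with a pileup of 115 (chromosome 7, 70361685 to 70362114), 4846.5 bp past its listed start, and a weaker peak 663 bp further that falls beyond 5 kb. Klf15 had 8.77-fold at its listed start and 4.36-fold 1125.5 bp downstream, and Per1, a circadian clock gene, had 6.06-fold and 3.55-fold.

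The other progesterone response hosts had peaks between 3.76-fold and 5.45-fold. Cited2, a transcriptional co-regulator gene, had 5.45-fold, Tsc22d3, a glucocorticoid-induced leucine zipper gene, 5.33-fold, and Ncoa2, a steroid receptor coactivator gene, 5.12-fold. Hand2, a stromal factor that restrains epithelial growth, had 3.86-fold with a pileup of 32, 583 bp from a gene-end peak of 4.29-fold, and Sox17 had 3.76-fold. Of the 11 peaks in this list 2 lay at a listed start, and 2 others were in genes with none listed.

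**Figure D5:**
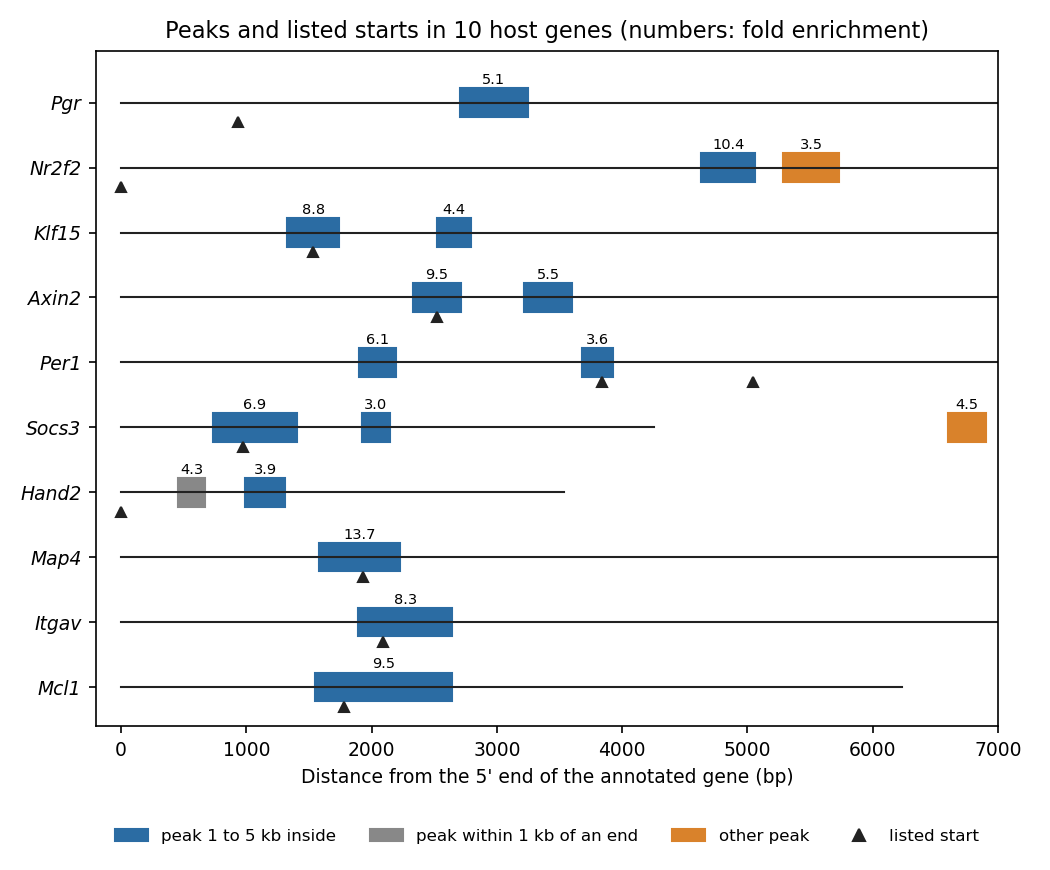
Peaks and listed starts in 10 host genes. The horizontal axis is the distance in bp from the annotated 5′ end, and triangles are listed starts. Boxes are peaks to scale with their fold enrichment above (blue for intragenic peaks, grey for peaks within 1 kb of an end, orange for others). In Klf15, Axin2, Per1, Socs3, Map4, Itgav and Mcl1 a listed start lies under a peak. The Pgr and Nr2f2 intragenic peaks lie 2042.5 bp and 4846.5 bp past the listed starts of these genes.

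Receptivity and implantation genes held an intragenic peak in 4 of 30 cases (13.3%). Itgav, the integrin alpha V gene, had 8.30-fold with a pileup of 93 at its listed start (chromosome 2, 83724197 to 83724944). Socs3, the inhibitor of signalling downstream of Lif and Stat3, had 6.90-fold at its listed start and 3.05-fold 1064 bp from it. Hoxa10, a homeobox gene needed for implantation, had 3.61-fold and Wnt5a, a Wnt ligand gene, 3.41-fold. Of the 15 uterine genes followed in every case, only Pgr, Hand2, Nr2f2 and Hoxa10 held an intragenic peak. Esr1, Prlr and Foxa2 had no peak inside the gene, the single peak in Lif lay 5743 bp from its nearest end, that in Lifr 38982 bp, and Ihh, Bmp2, Msx1 and Hoxa11 had theirs within 1 kb of an end. In Gata2 the inner peaks of 7.29-fold and 3.09-fold were set aside by the rule, being 354 bp and 940 bp from the end of a non-coding gene, and Wnt4 had none inside.

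Among oestrogen response genes 5 of 19 (26.3%) held one: Myc (7.08-fold), the growth factor gene Fgf9 (6.98-fold), the angiogenic factor gene Vegfa (4.76-fold and 3.52-fold), Wnt11 (4.53-fold) and Klf4 (3.85-fold). Immediate early and stress genes held one in 4 of 27 (14.8%). Mcl1, a survival gene of the Bcl2 family, had 9.51-fold over 1093 bp (chromosome 3, 95658496 to 95659588), and Fosb, Jund and Jun, which encode AP-1 subunits, had 6.41-fold, 6.05-fold and 6.00-fold. In the Fos and Jun family genes these peaks lay 1214 to 1520 bp past the listed start.

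Developmental transcription factor genes held one in 12 of 59 (20.3%), and their peaks were weak, with a median of 3.92-fold over 14 peaks and a highest value of 5.73-fold at Hey1, a Notch target gene. Foxp1 had 5.05-fold, Nfix 4.76-fold and 4.74-fold, Gata5 4.37-fold, Nfib 4.07-fold, Foxl2 4.01-fold and Gata6 3.84-fold and 3.49-fold. Foxc2, Irx3, Foxc1, Tbx3 and Tbx2 had 3.22-fold to 3.69-fold, each in a gene with a gene-end peak. Of the 14 peaks 2 lay at a listed start, and 7 were in genes with none listed.

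Chromatin regulator genes held one in 7 of 49 cases (14.3%). Of their 9 peaks 7 were at a listed start, and 2 were in genes with none listed. At a listed start were 50.7% of all intragenic peaks and 61.5% of those in genes with a listed start, and the difference was not tested. Among the host genes were Arid1a, a SWI/SNF subunit gene (6.07-fold and 2.72-fold), Kdm6a, an H3K27 demethylase gene (6.05-fold and 5.08-fold), Arid1b (5.85-fold) and Kmt2d, an H3K4 methyltransferase gene (5.73-fold). The DNA methyltransferase gene Dnmt3a had 3.92-fold and the demethylase gene Kdm6b 3.33-fold. Signalling inhibitors held one in 6 of 31 (19.4%), led by Axin2 (9.50-fold), with Spry1 (5.21-fold), Spred2 (4.76-fold), Socs2 (4.54-fold), Smad6 (4.03-fold) and Smad7 (3.99-fold).

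Lists of cell type markers were short, with 0 to 3 host genes each. Smooth muscle genes held an intragenic peak in 2 of 19 cases (10.5%), Smtn, the smoothelin gene (5.13-fold), and Oxtr, the oxytocin receptor gene (4.07-fold). Endothelial genes held one in 2 of 15 (13.3%), which were Fli1 with 5.24-fold and Sox17. Stromal genes held one in 1 of 15 (6.67%), Hoxd11 with 3.59-fold, epithelial genes in 1 of 15 (6.67%), Grhl2 with 3.62-fold, and immune genes in 1 of 17 (5.88%), Runx3 with 3.75-fold. Neuronal and glial genes held one in 3 of 18 (16.7%), a higher share than in the receptivity, chromatin and immediate early lists: Olig2 (5.26-fold), Rbfox3 (5.11-fold) and Syp (3.37-fold). Blastocyst genes (0 of 13) and genes of other organs (0 of 18) held none. Ubiquitously expressed genes held one in 2 of 22 (9.09%), Actb, the beta-actin gene (8.03-fold), and Tubb5, a beta-tubulin gene (4.30-fold).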

How the data were processed

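Per the labels' protocols, 100 mg of frozen uterus was crosslinked in 1% formaldehyde for 9 min, sheared to about 300 bp and extracted with phenol-chloroform. Tools named in the submitters' processing notes are Bowtie2, MACS2, HOMER and FastQC, all without a version, and the build is GRCm38.p5. How peaks were thresholded, whether an input served as control and whether libraries were pooled is not given in the sources used here. The deposited table gives each peak's pileup (taken as a coverage signal), fold enrichment (taken as a ratio to local background), −log10 p-value and −log10 q-value, per the file headers. Depth is unknown.

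Genes and starts came from RefSeq tables of GRCm38.p6, without 340 genes whose positions below 3 Mb look like those of scaffolds, leaving 49214. No start is listed on chromosome 18. Distances run from peak centres to the ends of gene spans. Exons, introns and untranslated regions were not separated. Local background was (pileup + 1) / fold − 1. Placement was computed with Python 3.11.15, NumPy 2.4.6, pandas 2.3.3 and SciPy 1.17.1 and tested on simulated peaks. Wilson intervals cover counting error only. No test was made, since the table names no mouse, and no replicate could be left out.

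The members and the 16 gene lists were chosen with earlier results of these data known. Named by rule were the 20 highest peaks, the 10 genes with most, the 3 highest per list, 15 uterine genes, and the 3 widest, the 3 of highest background and the 3 on each side of both limits. Listed starts, motifs, printed sequences, mapped genes and other named genes were chosen after values were seen. Values of some genes that the rule names are not reported here.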

Additional observations from a re-analysis of the deposited data

How the results depend on the processing

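No paired analysis was possible because the peak list names no sample, and for the same reason no mouse was left out in turn. The number of intragenic peaks followed the limits: 2364 with an inner limit of 0.5 kb, 487 with 2 kb, 473 in the 6207 peaks of highest fold and 493 in the 6207 of highest −log10 q, against 1232. In those 2 stricter sets, in that order, the median fold was 7.55 and 7.42, the gene-end median exceeded it by 0.262 and 0.410 (0.983 over all peaks), and the share nearest the 5′ end was 92.25% and 92.5%. The share of hosts with a gene-end peak there was 4.25% and 7.38%, and that of other genes, chosen after seeing the data, 28.9% and 28.5%, with fewer gene-end peaks left to count. Nearest the 5′ end were 87.0% with 0.5 kb, 77.5% with 2 kb and 79.7% with an outer limit of 10 kb, and hosts with a gene-end peak were 27.0% and 34.4% with inner limits of 0.5 and 2 kb. The share at a listed start, 50.7%, was examined under alternatives chosen after seeing the data. It was 61.8% with 0.5 kb, 55.0% with the inner limit set by protein-coding ends only, 67.5% and 66.4% in the 2 stricter sets, 43.4% for starts within 500 bp, 36.6% for overlap of the 300-base window and 61.5% in genes with a listed start. Further settings used summits, kept scaffold genes, or required the whole peak to be over 1 kb from ends. Others set an outer limit of 3 kb or left out 30 peaks of high background (1 of them intragenic). These settings moved no value beyond its interval over all peaks or, for the number of peaks, 1.5 times. That interval was a Wilson interval for shares. For the median fold and its difference from gene ends it was taken from ranked peak values, and peaks are not replicates.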

Other observations

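Intragenic peaks were counted per Mb of the bases that meet the distance rule on each chromosome. Chromosome 11 had the most, 119 peaks or 13.4 per Mb, followed by chromosome 10 with 12.6 and chromosome 15 with 12.2. Chromosome X had the lowest density, 6.00 per Mb with 31 peaks, although these made up 12.2% of its peaks, against 9.93% over the whole list. The Kdm6a peaks lie among them.

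The widest intragenic peaks were in Ccdc177 (1584 bp, 5.15-fold), Fbxl17, an F-box gene (1535 bp, 5.47-fold), and Tnrc6c, a gene of microRNA silencing (1402 bp, 5.21-fold), and the latter 2 overlapped the window of a listed start. The highest local background was in Sfi1, at 78.6 with a fold of 2.60, followed by 2 neighbouring peaks in Cdk13, a kinase gene, at 20.4 and 20.3 with folds of 2.44 and 3.09.

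A minority of starts under an intragenic peak were poor in CpG: 39 of 492 windows had a ratio of 0.6 or less, and the peaks over them had a median of 5.00-fold, against 6.58 over the others. Among them were windows in Zpbp (ratio 0.374, peak of 9.96-fold), Gramd1a (0.399, 9.41-fold) and Scyl3 (0.458, 8.57-fold), genes chosen after their values were seen.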
